A study of Mus musculus with 6 samples.

Results

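The genes described are 10 small cytoskeletal, calcium-binding and sugar-binding genes of effector and memory T cells: S100a4, S100a6, S100a10, S100a11 and S100a13, the galectin genes Lgals1 and Lgals3, the annexin gene Anxa2, the actin-capping gene Capg and the vimentin gene Vim. They were found on the arrays by gene symbol, current or older, and all 10 had a transcript cluster, the set of probes that stands for a gene, among 30024 genes with a cluster of their own and 65528 clusters in all. The list of 10 was drawn up with the difference between the genotypes already known, so their values in that comparison are given as a description, with no test.

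The samples were CD4+ CD25+ T cells, the surface type of regulatory T cells (Treg cells), taken by magnetic separation from the spleens of untreated male mice, all labelled C57BL/6. The Keap1_KO group (3 arrays, replicates B, C and D, labelled Keap1 -/-) came from mice with a floxed Keap1 gene and Cre recombinase under the Vav promoter, which acts throughout blood-forming cells, so other blood cells of these mice lost Keap1 as well. The WT group (3 arrays, replicates A, D and F) is labelled Keap1 +/+, and the labels do not say whether these mice carried Cre. The labels state an age of 10 to 12 months in one field and 6 to 10 weeks in another, and the series title has CD4- where every sample label has CD4+. Nothing states that each array is a different mouse, so the spread between arrays may be partly technical.

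Values are deposited log2 expression values, 1 per cluster and array, and a difference is Keap1_KO minus WT on that scale. A fold is that difference taken off the log2 scale. A rescaling that no source states lies behind the values, so a fold need not equal the ratio of RNA amounts. Where 3 values are given for a group they stand in the order A, D, F for WT and B, C, D for Keap1_KO. Dim genes were left untested, namely those whose cluster did not reach the array median on 3 or more arrays, which left 16825 genes. Across those genes, Keap1_KO B correlated at 0.982 to 0.988 with the WT arrays and at 0.958 and 0.961 with Keap1_KO D and C, so the differences of the 10 genes are also given without that array. The targeted gene, Keap1, read 5.30, 5.41 and 5.77 in WT and 4.87, 4.89 and 4.70 in Keap1_KO, and Nqo1, a quinone reductase gene switched on by NRF2, read 4.68 to 5.03 in WT and 7.55 to 9.14 in Keap1_KO. The array medians ran from 5.16 to 5.43, so Keap1 in Keap1_KO and Nqo1 in WT lay below them, in the dim range. T cell and Treg genes were bright: Il2ra, which encodes CD25, read 13.60 to 14.19 over the 6 arrays, Cd4 11.16 to 13.29, Cd3e 14.30 to 16.19, Ctla4 11.78 to 12.42 and Ikzf2 14.92 to 15.57. Markers of other cells were bright on some arrays too and are given below. Foxp3 had only a cluster shared with neighbouring transcripts, which read 10.76 to 12.41.

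S100 proteins are small calcium-binding proteins that pair up and, on binding calcium, dock onto target proteins such as myosin and annexins. Annexins bind membranes in a calcium-dependent way, and Anxa2 forms a complex with S100a10 under the plasma membrane. Galectins bind galactose-containing sugar chains on cell-surface proteins, Capg caps the ends of actin filaments, and vimentin is the intermediate filament of lymphocytes and other cells of mesodermal origin. These genes are known to be higher in activated and memory T cells and in effector Treg cells than in naive T cells, and several of them are also abundant in myeloid cells. Keap1 keeps the transcription factor NRF2 low, and NRF2 binds the antioxidant response element.

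The start sites of the genes were also compared, as a description only. Their shared direction is no ground for this, since the list was drawn up with the differences known. RefSeq (build GRCm38.p6) gave promoter windows, 250 bases before to 50 bases after the start site, for 8 of the 10 genes. Lgals1 and S100a10 had no entry. The windows were searched on both strands for the core of the antioxidant response element, spelled TGACNNNGC, for the AP-1 site TGAGTCA, for the GC box GGGCGG and for the TATA box TATAAA. The first 2 spellings can overlap in part, since an AP-1 site may form the start of the antioxidant element. The 4 stretches below are the ones with an AP-1 site or a TATA box, the 250 bases before the start site, 5′ to 3′ on the plus strand, with those motifs in capitals. They lie at chr3:90603520-90603769 (S100a4), chr3:93520246-93520495 (S100a11), chr9:69453433-69453682 (Anxa2) and chr2:13574061-13574310 (Vim).
S100a4: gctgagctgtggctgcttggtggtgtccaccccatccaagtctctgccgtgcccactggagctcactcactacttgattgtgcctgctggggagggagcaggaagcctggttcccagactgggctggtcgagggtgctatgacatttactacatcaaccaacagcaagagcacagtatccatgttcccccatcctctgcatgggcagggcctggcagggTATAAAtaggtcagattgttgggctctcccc
S100a11: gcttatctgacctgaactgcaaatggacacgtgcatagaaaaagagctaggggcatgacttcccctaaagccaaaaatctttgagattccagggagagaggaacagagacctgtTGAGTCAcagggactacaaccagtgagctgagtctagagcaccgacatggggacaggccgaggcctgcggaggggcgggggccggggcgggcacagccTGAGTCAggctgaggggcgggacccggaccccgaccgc
Anxa2: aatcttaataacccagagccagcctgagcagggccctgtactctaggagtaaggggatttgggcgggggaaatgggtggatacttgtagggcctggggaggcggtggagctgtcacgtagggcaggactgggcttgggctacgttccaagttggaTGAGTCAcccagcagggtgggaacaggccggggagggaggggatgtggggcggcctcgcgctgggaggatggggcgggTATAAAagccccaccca
Vim: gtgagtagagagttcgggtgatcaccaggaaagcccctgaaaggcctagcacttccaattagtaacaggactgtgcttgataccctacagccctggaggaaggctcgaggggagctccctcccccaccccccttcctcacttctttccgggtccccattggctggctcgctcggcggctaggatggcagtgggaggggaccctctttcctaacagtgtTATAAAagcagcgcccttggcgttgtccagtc

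None of the 8 windows held the antioxidant core, which 12.4% of all 32851 RefSeq windows held, and this says only that those letters are absent from these windows. The AP-1 site stood in 2 windows, 136 and 38 bases before the start site of S100a11 and 95 bases before that of Anxa2, against 5.20% of all windows. The TATA box stood 31 bases before the start site of S100a4, 32 bases before that of Vim and 17 bases before that of Anxa2, so in 3 of 8 windows, against 13.6% of all. GC boxes stood in the windows of S100a11, Anxa2 and Lgals3, or 3 of 8 against 35.7%. The windows of S100a6, S100a13 and Capg held none of the 4 motifs.

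All 10 genes had a higher mean in Keap1_KO, and for 8 of them every Keap1_KO array read above every WT array. The count of 8 of 10 stands beside 9.11% of all genes tested with such a separation, and 0 of 10 separated in the other direction beside 4.96% of all genes. Since the list was chosen on this contrast, nothing is read from these counts. Differences ran from 0.17 for Lgals3 to 2.23 for Lgals1, with a median of 1.36 against 0.06 for all genes tested, and 7 of the 10 exceeded 1 on the log2 scale, beside 6.81% of all genes. The arrays of the genotypes overlapped for S100a13 and Lgals3. Without Keap1_KO B, the array nearest to WT, the differences of S100a4, S100a6, S100a10, S100a11 and S100a13 were 2.05, 1.67, 0.86, 1.25 and 1.28. Those of Lgals1, Lgals3, Anxa2, Capg and Vim were then 2.75, 0.11, 2.06, 1.82 and 1.53. All 10 lay at or above the array median on all 6 arrays. With bulk RNA, more cells that express a gene cannot be told apart from more RNA per cell.

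**Figure D1:**
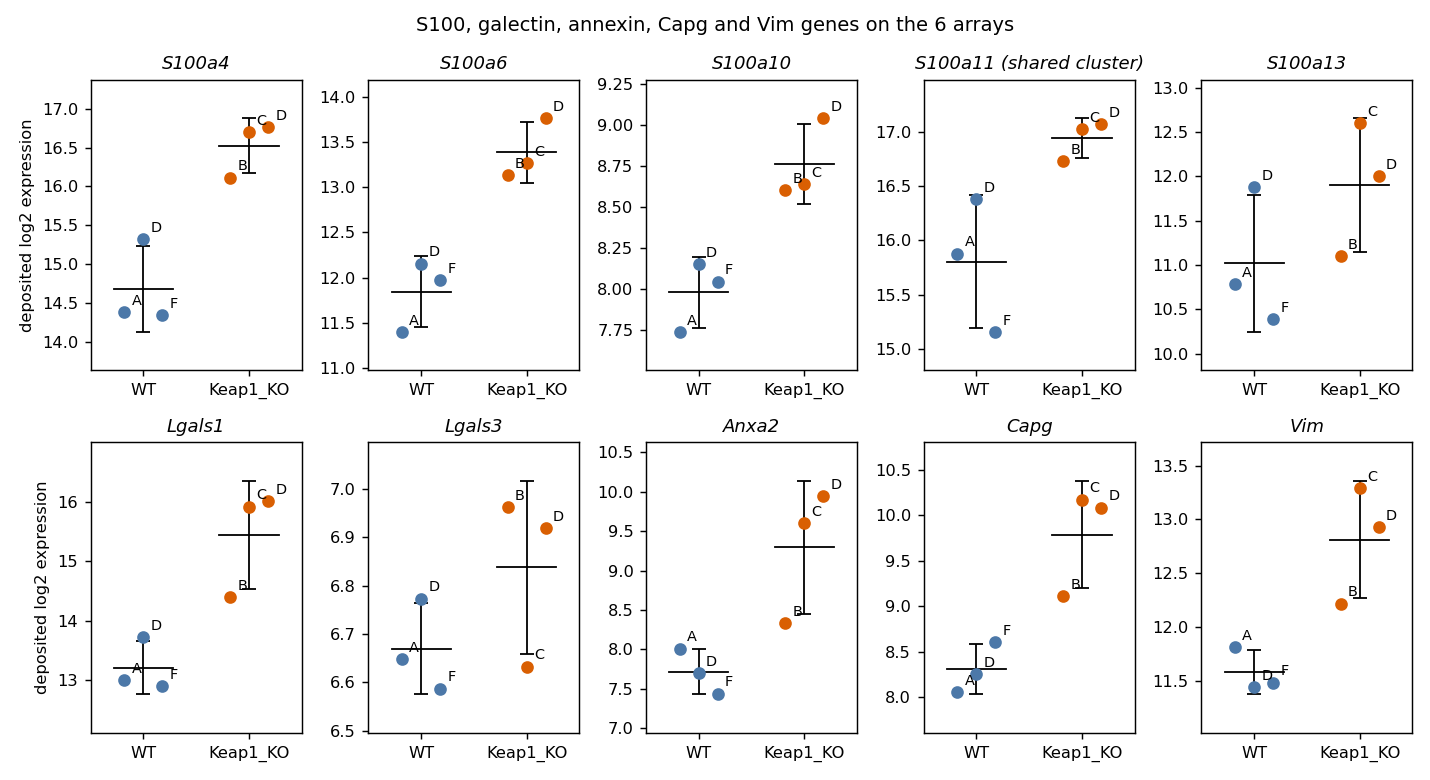
Deposited log2 expression of the 10 genes, 1 panel per gene with its own axis, on the WT arrays (blue, A, D and F) and the Keap1_KO arrays (orange, B, C and D), with the mean as a line and the SD (n = 3) as an error bar. The groups are apart in 8 panels and overlap for S100a13 and Lgals3, and Keap1_KO B is the lowest Keap1_KO array in every panel but that of Lgals3.

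Among the S100 genes, S100a4 encodes metastasin, which binds non-muscle myosin and marks memory T cells. S100a4 read 14.38, 15.32 and 14.35 in WT and 16.11, 16.69 and 16.76 in Keap1_KO. WT D was the highest WT array and still lay 0.79 below the lowest Keap1_KO array. The difference was 1.84 (SE 0.32), or 3.59-fold, from 14.68 ± 0.55 to 16.52 ± 0.36 (mean ± SD, n = 3 each).

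S100a6 encodes calcyclin, whose gene lies next but 1 to S100a4. S100a6 read 11.40, 12.16 and 11.97 in WT and 13.13, 13.26 and 13.76 in Keap1_KO. This was the widest gap among the 10 genes, with 0.97 between the highest WT and the lowest Keap1_KO array. The difference was 1.54 (SE 0.26), or 2.91-fold.

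S100a10 and S100a11 are neighbours elsewhere on the same chromosome. S100a10, the Anxa2 partner that does not need calcium for binding, read 7.74, 8.15 and 8.05 in WT and 8.60, 8.64 and 9.04 in Keap1_KO. The groups did not overlap, and at 0.78 (SE 0.18) the difference was the smallest among the 8 genes whose groups were apart. The cluster of S100a11, which 2 predicted genes named Gm12854 and Gm5068 share, read 15.88, 16.38 and 15.16 in WT and 16.74, 17.03 and 17.07 in Keap1_KO. The WT arrays of this cluster were spread over 1.22 and the Keap1_KO arrays over 0.34, and the groups lay 0.36 apart. Its difference of 1.14 (SE 0.32) belongs to the cluster and not to S100a11 alone.

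S100a13, which takes part in the release of proteins that lack a secretion signal, behaved otherwise. It read 10.79, 11.88 and 10.39 in WT and 11.10, 12.60 and 12.01 in Keap1_KO. Keap1_KO B lay below WT D, so the groups overlapped, and both groups were widely spread (SD 0.77 in WT and 0.76 in Keap1_KO). The difference of 0.88 (SE 0.52) was 1.31 without WT D, 0.57 without WT F and 0.53 without Keap1_KO C.

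The galectin genes parted. Lgals1, which encodes galectin-1, a secreted lectin known as a Treg effector that acts on activated T cells, read 13.01, 13.72 and 12.90 in WT and 14.39, 15.92 and 16.01 in Keap1_KO. All Keap1_KO arrays lay above WT D, with Keap1_KO B well below C and D, and the spread within Keap1_KO was the widest of the 10 genes (SD 0.91). The difference, the largest of the 10, was 2.23 (SE 0.48), or 4.69-fold, and 2.75 without Keap1_KO B. Lgals3, which encodes galectin-3, read 6.65, 6.77 and 6.59 in WT and 6.96, 6.63 and 6.92 in Keap1_KO. Here Keap1_KO C lay below WT A and D, and Keap1_KO B was the highest array of all 6. The difference of 0.17 (SE 0.13) was 0.11 without Keap1_KO B, 0.27 without Keap1_KO C and 0.28 with each array centred on its median.

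Anxa2 read 8.01, 7.70 and 7.44 in WT and 8.34, 9.60 and 9.94 in Keap1_KO. Its groups were 0.33 apart, with Keap1_KO B nearer to WT A than to Keap1_KO C. The difference was 1.58 (SE 0.43), or 2.99-fold, and 2.06 without Keap1_KO B. The difference for Anxa2 was thus larger than the 0.78 of its partner gene S100a10 on these arrays, and the 2 differences were not tested against each other.

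Capg read 8.06, 8.25 and 8.60 in WT and 9.11, 10.17 and 10.08 in Keap1_KO. WT F was the highest WT array and lay 0.51 below Keap1_KO B. The difference was 1.48 (SE 0.32), or 2.80-fold. Vim read 11.81, 11.44 and 11.48 in WT and 12.21, 13.29 and 12.93 in Keap1_KO. The WT arrays of Vim lay within 0.38 of each other, the narrowest WT range after that of Lgals3, and the groups were 0.40 apart. The difference was 1.23 (SE 0.29), or 2.35-fold.

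The list was chosen on the mean difference, which rests on the same Keap1_KO values, so the order of the arrays inside a genotype is not independent of that choice and is given as a description. Keap1_KO B was the lowest Keap1_KO array for 9 of the 10 genes, beside 46.9% of all genes tested, and WT D the highest WT array for 7 of 10, beside 46.8%. The mean of Keap1_KO C and D exceeded Keap1_KO B by a median of 0.75 over the 10 genes and of 0.09 over all genes tested. The genes are grouped here by how far Keap1_KO B lay from WT, a grouping made after their values were seen. For S100a4, S100a6, S100a10 and S100a11, Keap1_KO B reached 70.0% to 77.1% of the distance from the WT mean to the mean of Keap1_KO C and D. For Lgals1, Anxa2, Capg and Vim it reached 30.3% to 44.1%, and for S100a13 5.96%. Lgals3 has no such share, since Keap1_KO B was its highest array. The median SD of the 10 genes was 0.34 in WT and 0.45 in Keap1_KO, against 0.28 and 0.30 for all genes tested.

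Gene families were then compared, from 8 lists made by family or known partnership. With limma, 0 of the 16825 genes tested passed an adjusted p of 0.05 (0% called), although 1733 had an unadjusted p under 0.05. Weighting the arrays by quality gave 1612 genes higher and 268 lower, and leaving out Keap1_KO B gave 542 and 27. Of the 67 genes tested on the 8 lists, 0 passed, 13 had an unadjusted p under 0.05, and 12 read higher on every Keap1_KO array than on every WT array, or 17.9% beside 9.11% of all genes. A higher mean in Keap1_KO was seen for 53 of the 67. Without Keap1_KO B, 6 of the 67 passed, beside 542 higher and 27 lower of all 16825 genes: Anxa5, Scin, Tagln2, Coro1a, Cd2 and Lsp1. That array was singled out as the nearest to WT, so leaving it out widens the contrast. Leaving out any other single array gave 0 of the 67 and 0 over all genes.

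Of the annexins other than Anxa2, all 5 that were tested had a higher mean in Keap1_KO, beside 56.5% of all genes tested. Their median difference was 1.02, the Keap1_KO arrays lay above the WT arrays for 3, beside 9.11% of all genes, and 0 passed the threshold with limma. Anxa5, which binds phosphatidylserine, read 10.75, 11.29 and 10.32 in WT and 11.30, 13.16 and 13.15 in Keap1_KO. Keap1_KO B lay only just above WT D, and the difference of 1.74 (SE 0.55) had an adjusted p of 0.476, and of 0.0372 without Keap1_KO B, where it was 2.36. Anxa6 differed by 1.19, Anxa1 by 1.02 (0.39 without Keap1_KO D), Anxa4 by 0.99 and Anxa7 by 0.85, and the arrays overlapped for Anxa1 and Anxa4. Anxa3, Anxa8, Anxa9, Anxa10 and Anxa13 lay below the intensity filter. Anxa11, on 3 clusters shared with predicted genes, differed by 0.91 to 0.99.

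The other S100 genes were mixed. S100a2, which was tested and differed by 0.81 (SE 0.73), is missing from the list and so from the counts and median given here. With S100a2 the median would be higher, midway between the differences of S100a14 (-0.07) and S100a2 (0.81). Of 13 listed, 12 had a cluster of their own and 5 were tested, of which 2 had a higher and 3 a lower mean, with a median of -0.07 that was 0.041 with centred arrays. The 2 were S100a8 and S100a9, the calprotectin genes of neutrophils. S100a8 read 13.76, 17.05 and 15.63 in WT and 14.92, 17.91 and 19.16 in Keap1_KO. The groups overlapped over most of their range, with Keap1_KO B below WT D and F, and the difference of 1.85 had an SE of 1.26 (adjusted p = 0.537). It was 3.06 without Keap1_KO B, 0.93 without Keap1_KO D and 0.99 without WT A. S100a9 differed by 1.94 (SE 1.34, adjusted p = 0.540), and by 3.31, 0.81 and 1.19 without the same arrays. S100g differed by -0.64, with -1.14 without WT A, -0.06 without WT F and -0.19 without Keap1_KO C. S100a3 differed by -0.12 and S100a14 by -0.07, and none of the 5 passed the threshold.

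By RefSeq order of coding genes, 12 of the S100 genes on chromosome 3 form an unbroken run from S100a1 to S100a9, with S100a13, S100a4 and S100a6 in it. S100a7l2 follows next but 1, and S100a11 and S100a10 lie side by side farther along. Inside the run the genes between them read differently. S100a5, which separates S100a4 from S100a6, differed by 0.07 at 4.25 in WT and 4.32 in Keap1_KO, under the intensity filter. S100a14, S100a16 and S100a3, between S100a13 and S100a4, differed by -0.07, -0.08 and -0.12. S100a2, directly before S100a4 and outside the lists, differed by 0.81 (SE 0.73, adjusted p = 0.621). The neighbours Tchhl1 and Tdpoz2 that flank the S100a11 and S100a10 pair differed by -0.26 and 0.38 and were below the filter.

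**Figure D2:**
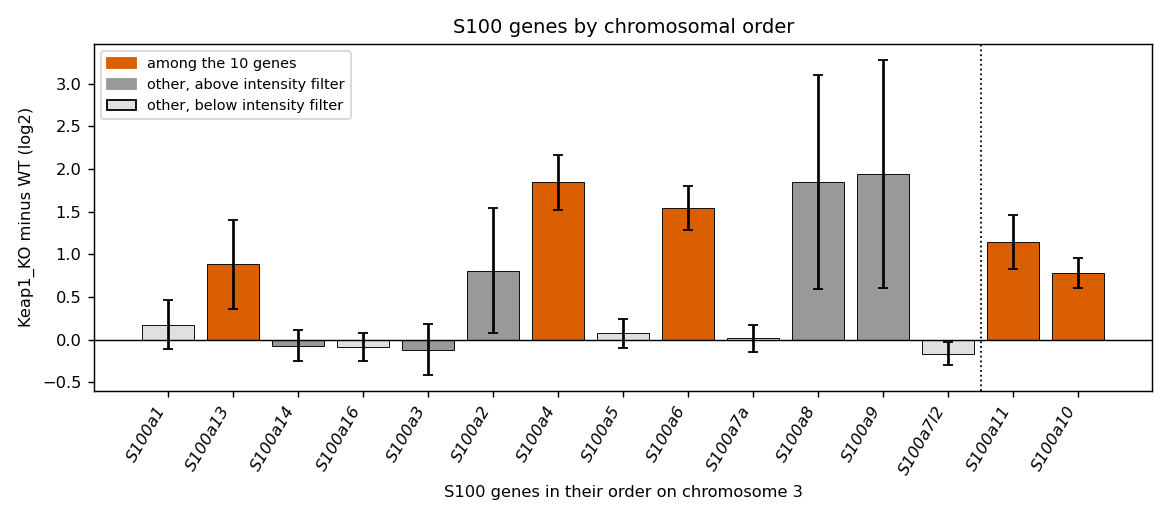
Difference Keap1_KO minus WT (log2, bars from 0) with its standard error (lines) for the S100 genes in their order on chromosome 3, the dotted line marking a longer stretch of other genes. Orange bars are the 5 S100 genes among the 10, dark grey bars other S100 genes above the intensity filter and light bars those below it. S100a4 (1.84) and S100a6 (1.54) stand on both sides of S100a5 (0.07), and S100a8 and S100a9 have the longest error lines.

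The other galectins and the gelsolin relatives held genes with a higher and with a lower mean. Of 5 galectin genes tested, 3 had a higher mean (median 0.00095). Lgals9, the gene of galectin-9, which binds the inhibitory receptor TIM-3, differed by 1.28 (SE 0.45, adjusted p = 0.476) with Keap1_KO B (11.31) below WT D (11.54), and Lgals8 by 0.30 with its groups apart. Lgals4 and Lgals7 differed by -0.14 each. Scin, which encodes the actin-severing protein scinderin of the family of Capg, read 5.17, 5.71 and 4.77 in WT and 6.26, 9.96 and 8.60 in Keap1_KO. Each Keap1_KO array lay above each WT array, but Keap1_KO B by 0.55 only, and the difference of 3.06 (SE 0.89) had an adjusted p of 0.476, and of 0.0344 without Keap1_KO B. Scin reached the array median on 4 arrays, only 1 of them WT. It was thus tested only because of the Keap1_KO arrays, where it was high, and its WT level was near the dim range. Flii differed by 0.82, Gsn by 0.22 and Svil by -0.31. Of 12 other intermediate filament and lamin genes, 4 were tested, all with a higher mean and none past the threshold. Lmna, which encodes lamin A, differed by 0.38, Nefh by 0.16, Lmnb2 by 0.08 and Lmnb1 by 0.01.

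**Figure D3:**
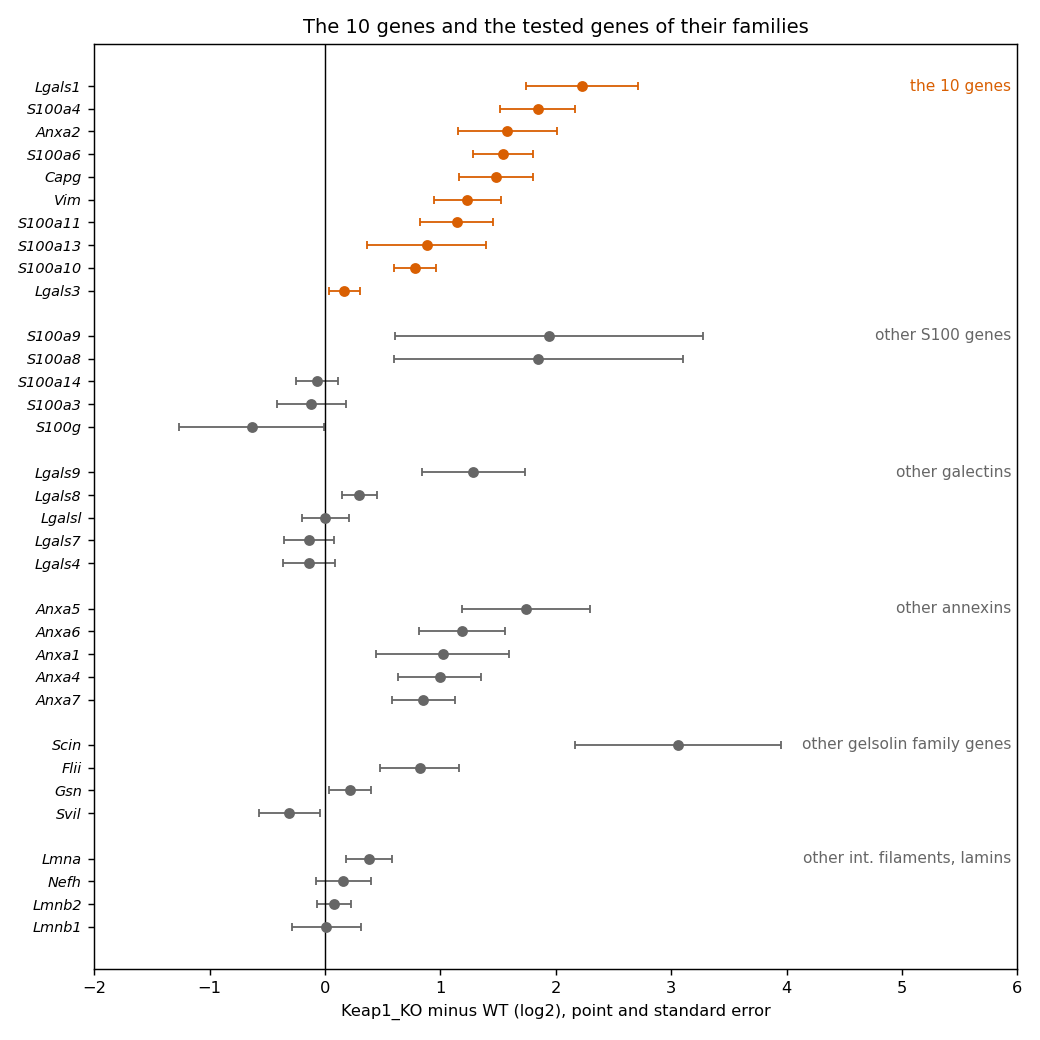
Difference Keap1_KO minus WT (log2, horizontal axis) with its standard error for the 10 genes (orange) and the listed and tested genes of their 5 families (grey), 1 row per gene. S100a2 was not on the list and is not shown. All tested annexins lie to the right of 0, whereas other S100 genes and galectins lie on both sides, and Scin has the largest difference at 3.06.

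The lists of binding partners and the wider actin machinery had medians below that of the other annexins (1.02) and above that of the other galectins (0.00095). Of 7 S100 and annexin partner genes tested, 5 had a higher mean (median 0.08). Sugt1, the gene of a co-chaperone that S100a6 binds, differed by 1.12 (1.69 without Keap1_KO B), Myl12a and Myl12b, regulatory light chains of the myosin that S100a4 binds, by 0.27 and 0.26, and Ager, the receptor for extracellular S100 proteins, by -0.25. The heavy chain gene Myh9, on a shared cluster, read 12.33 ± 0.61 in WT and 12.08 ± 0.59 in Keap1_KO, and Ahnak, whose giant protein is held by the S100a10 and Anxa2 complex, 11.23 ± 0.07 and 11.31 ± 0.68, also on a shared cluster. The light chain gene Myl6, on a shared cluster as well, read 14.32 ± 0.36 in WT and 15.01 ± 0.35 in Keap1_KO, a difference of 0.68. Among 16 genes of galectin ligands and sugar-chain branching, 11 had a higher mean (median 0.27). Cd7, a galectin-1 receptor of T cells, differed by 1.65 with overlapping arrays, and by 2.51 without Keap1_KO B, 0.91 without Keap1_KO D and 1.06 without WT F. Cd2 differed by 0.83 with its groups apart, and the lysosomal glycoprotein genes Lamp1 and Lamp2 by 0.90 and 0.69, the latter by 0.30 without WT F, 1.05 without WT D and 0.43 without Keap1_KO D. Of 21 actin cytoskeleton genes tested, 20 had a higher mean (median 0.22), beside 56.5% of all genes tested. Tagln2, an actin-bundling gene, differed by 1.66 (SE 0.45) with its groups apart, Coro1a by 1.07, Wdr1 by 1.01 and the cofilin gene Cfl1 by 0.96, and none passed. The difference of Cfl1 was 1.504 without Keap1_KO B and 0.62 without Keap1_KO C. On shared clusters, which were left untested, Actg1 differed by 1.16 and 0.80 and Arpc1b by 0.91.

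Several of the 10 genes are also expressed in myeloid cells, so the markers of other cells are given beside them, and no marker list holds any of the 10. Of the neutrophil list, 16 of 17 genes had a cluster of their own, 15 were tested, 14 had a higher mean, with a median difference of 1.33 beside the 1.36 of the 10 genes, and none lay below the array median on all 6 arrays. Its summed level (log2 of the summed linear values) ranged from 14.47 to 17.58 in WT and from 15.43 to 19.99 in Keap1_KO, highest on Keap1_KO D. Ngp, a granule protein gene, read 13.56 on Keap1_KO D and 7.51 on Keap1_KO B, and Camp 15.23 and 8.26. Mpo, which differed by 2.47 (SE 0.73), was the 1 tested neutrophil gene with every Keap1_KO array above every WT array, beside 9.11% of all genes. The macrophage and monocyte list summed to 13.04 to 15.12 in WT and 13.68 to 16.29 in Keap1_KO. Of its markers, 3 (Cd14, Fcgr1 and C1qa) lay below the array median on all 6 arrays, Csf1r differed by 0.01, and Lyz2, shared with neutrophils, read 15.13 on Keap1_KO D and 8.21 to 11.73 in WT. Of 12 tested CD4 T cell and Treg identity genes, 10 had a higher mean (median 0.79), 1 had every Keap1_KO array above every WT array and 0 passed. Cd4 differed by 1.04, Cd3e by 0.96, Ctla4 by 0.08, Il2ra by -0.05 and Ikzf2 by -0.11. Other Treg genes of the list differed more, Tnfrsf18 by 2.35 (SE 0.79) and Ikzf4 by 0.64. The shared Foxp3 cluster, which was not tested, read 10.89 ± 0.22 in WT and 11.87 ± 0.67 in Keap1_KO, a difference of 0.98. The groups overlapped for Tnfrsf18, Ikzf4 and the Foxp3 cluster. The medians of the marker lists other than those of neutrophils and CD4 T cells ran from -0.16 for platelets and megakaryocytes to 0.75 for the 2 CD8 genes, and 0 marker genes passed with limma.

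On Keap1_KO B the neutrophil level (15.43) was above that of WT A (14.47) and below those of WT D (17.58) and WT F (16.20). The mean deviation of the 10 genes from their 6-array mean was -0.75, -0.35 and -0.83 in WT and 0.14, 0.86 and 0.93 in Keap1_KO. The corresponding values of the neutrophil list were -1.13, -0.07 and -0.88, and -1.02, 0.56 and 2.53. Those of the CD4 T cell and Treg list were -0.43, -0.09 and -0.54, and -0.18, 0.60 and 0.64. Of the erythroid list, 4 of 9 genes had a cluster of their own. They differed by -0.39 (Alas2), -0.11 (Epb42, below the intensity filter), 0.01 (Klf1) and 0.17 (Slc4a1). The beta-globin genes share clusters, of which the brighter read 9.34 to 9.85 in WT and 13.03 to 14.93 in Keap1_KO. The globin signal thus separates the groups as well, while the 4 other genes differed little or in the other direction. The part of these other cells in the differences of the 10 genes was not tested.

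**Figure D4:**
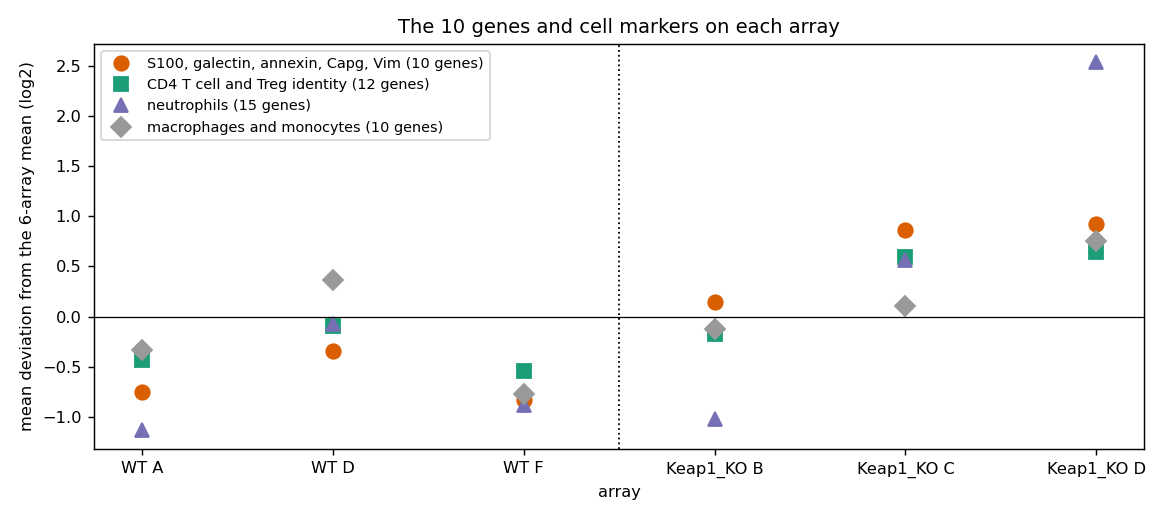
Mean deviation from the 6-array mean (log2, vertical axis) on each array (horizontal axis) for the 10 genes and for markers of CD4 T and Treg cells, neutrophils, and macrophages and monocytes. The 10 genes (orange circles) are below 0 on all WT arrays and above 0 on all Keap1_KO arrays. The CD4 T and Treg markers (squares) are below 0 on all WT arrays and on Keap1_KO B (-0.18), and above 0 on Keap1_KO C and D. The neutrophil markers (triangles) are low on Keap1_KO B (-1.02) and high on Keap1_KO D (2.53).

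Genes whose course over the 6 arrays was most like the mean of the 10 were found by the root mean square difference between profiles, each centred on its own mean. This measure had a median of 0.71 over 16816 other genes, and 228 of them lay within 0.25. The closest named genes were Dhps (0.08), Dcaf15 (0.12), Mif4gd (0.12), Dhrs1 (0.12), Tnfrsf1b (0.13), Zmat5 (0.14), Sirt2 (0.14) and Plekhj1 (0.15). Dhps encodes the enzyme that begins hypusine formation on eIF5A, and Tnfrsf1b encodes TNFR2, a receptor that Treg cells carry. Tnfrsf1b read 10.65, 11.31 and 10.87 in WT and 11.65, 12.21 and 12.34 in Keap1_KO. Among the 10 genes, Vim (0.27), S100a11 (0.28), S100a6 (0.29) and Capg (0.29) lay closest to their own mean and Lgals3 (0.65) and Lgals1 (0.55) farthest from it, the former for its flat and the latter for its wide course.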

How the data were processed

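RNA from 40 ng samples was amplified and hybridised to 6 Affymetrix mouse arrays. The authors deposited 1 log2 value per cluster and array. The submitters' processing notes name RMA (background correction, quantile normalization and probe summary), Transcriptome Analysis Console and Affymetrix Expression Console, without versions, and no source used here names a genome build. The values ran from 1.88 to 19.93, and 1268 clusters exceeded 16, more than a 16-bit scanner can give, so a rescaling that no source states lies behind them, S100a4, S100a11 and Lgals1 included. The number of arrays limits the precision.

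Symbols came from the platform annotation and were updated by Entrez identifier (824 of 22586 names replaced). Of the clusters, 30354 carried 1 symbol and 2118 several. The latter were left untested. The design text names another array type than the annotation. Of several clusters per gene, the brightest stood for it.

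limma 3.58.1 in R 4.3.3 compared the groups over 16825 genes (two-sided, Benjamini-Hochberg) and was tested on simulated data. The SE of the 10 genes comes from the fit without the intensity filter, with the shared S100a11 cluster included. The genes and lists were chosen with earlier results of these data known. Besides the 10 genes, those named are the checks of genotype and cell type, up to 4 tested genes of each list with the largest absolute difference, 6 myeloid markers, and the 8 closest profiles without predicted and small RNA genes. Some genes were added after their values were seen: S100a2, Anxa7, Anxa11, S100a14, Ahnak, Myh9, Myl6, Actg1, Arpc1b, Mpo, Tnfrsf18 and Ikzf4. The erythroid genes, other neighbours and genes passing an alternative were added in the same way.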

Additional observations from a re-analysis of the deposited data

How the results depend on the processing

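All 120 differences of single genes among the 10, under 12 alternatives each, kept their direction. How little they moved says nothing for most alternatives. Dropping the filter, averaging clusters, and the trend and robust options left these differences unchanged. Leaving out 1 of 3 arrays cannot move a group mean by as much as the group's SD. The median of the 10 genes stayed between 1.20 and 1.60, and the number with separated groups between 8 and 9. Repeating the quantile normalization or centring the arrays moved the median of all genes from 0.06 to 0.14 and 0.17, and that of the 10 genes to 1.35 and 1.47. Genes that read higher on all Keap1_KO arrays were 64.7% of all genes with separated groups, 75.2% and 84.4% under those scalings, and 41.9% with no intensity filter. Counts past the adjusted threshold over all genes (0 higher and 0 lower) became 1612 and 268 with array weights and 1 and 0 with the trend and robust options, and ranged from 0 to 542 and from 0 to 27 with 1 array left out. For the family and partner lists the count of 0 became 14 with array weights and ranged from 0 to 6 with 1 array left out. With S100a2, the median of the other S100 genes would lie midway between -0.07 (S100a14) and 0.81 (S100a2). The median of the listed genes alone, which lack S100a2, was -0.07. It turned to 0.046 after repeated quantile normalization, 0.041 with centred arrays and 0.028 with array weights. It was 0.038 and 0.17 without WT D and Keap1_KO B, in a range from -0.13 to 0.17 over the arrays left out. That of the other galectins (0.00095) turned to -0.068 with array weights and to -0.12, -0.039 and -0.0068 without WT F, Keap1_KO B and Keap1_KO C, in a range from -0.12 to 0.11. That of the S100 and annexin partners (0.08) was -0.0037 without Keap1_KO D and 0.32 and 0.33 without WT D and Keap1_KO B. The cause was not tested. No paired analysis was possible because the groups share only the replicate letter D.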
